A study of Homo sapiens with 6 samples.

Results

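DNAJC15 and 9 genes of the machinery that brings proteins into mitochondria and folds them there were followed in NCI-H295A cells, an established steroid-producing human adrenocortical carcinoma line. The members were TOMM20, TIMM17A, TIMM17B, TIMM44, HSPA9, GRPEL1, HSPD1, HSPE1, DNAJA3 and DNAJC15, taken on every probe set (a group of oligonucleotides that reads 1 transcript) to which the platform annotation gives 1 gene symbol. They numbered 10 of 11963 genes so named and 19 of 22215 probe sets. DNAJC15 was chosen because its signal was much lower after treatment in these same data, so its difference is described without a test. The other 9 genes, called the partners here, were listed by function, to ask whether that difference extended to them.

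RNA of 3 control plates, cultured without the agent, was compared with that of 3 plates given 8-Br-cAMP (1 mM) over 18 h. This analogue of cAMP enters cells and mimics the messenger through which ACTH, the pituitary hormone, acts on the adrenal cortex. All plates shared RPMI medium with fetal calf serum, gentamicin, insulin and selenium, and no vehicle is named for the controls. The series text speaks of 3 experiments in its selection rule, but no label says if plates were separate cultures, so p-values measure the spread among these plates, and that spread may be technical. The number of arrays, 1 per plate, limits the precision of every value.

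Most mitochondrial proteins are made in the cytosol with an N-terminal presequence. Receptors of the TOM complex in the outer membrane bind it, the TIM23 channel of the inner membrane threads it inwards, and a motor built on the matrix HSP70 chaperone pulls the chain into the matrix, where the HSP60 and HSP10 chaperonin folds it. J-domain proteins such as DNAJC15 switch on the ATPase of HSP70. In the adrenal cortex this route carries the mitochondrial enzymes and carriers of steroid synthesis. DNAJC15 is also known as methylation-controlled J protein, because DNA methylation of the gene silences it in some tumours, and as a brake on complex I of the respiratory chain.

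The bases ahead of 3 genes are shown because the results turn on DNAJC15, which was low after 8-Br-cAMP, and on the chaperonin genes HSPD1 and HSPE1, which start back to back and had unadjusted but not adjusted p-values under 0.05. They come from RefSeq's GRCh38.p14 annotation, which held 10 windows for 9 of the 10 genes, 2 of them for HSPD1, and none for GRPEL1. The 250 bases before the DNAJC15 start (chr13:43023336-43023585, plus strand) have their CG pairs, at which DNA can be methylated, in capitals. Methylation was not measured here, and these bases need not hold the sites that control the gene.
DNAJC15: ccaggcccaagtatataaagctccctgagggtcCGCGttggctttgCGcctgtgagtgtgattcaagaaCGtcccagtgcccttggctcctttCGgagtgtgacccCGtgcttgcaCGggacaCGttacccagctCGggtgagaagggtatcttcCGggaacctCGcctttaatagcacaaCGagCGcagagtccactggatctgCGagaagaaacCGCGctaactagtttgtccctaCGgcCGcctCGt
The 104 bases between the outer HSPD1 start, which runs on the minus strand, and the HSPE1 start, which runs on the plus strand (chr2:197500275-197500378, plus strand shown), carry a CACGTG element in capitals.
HSPD1-HSPE1: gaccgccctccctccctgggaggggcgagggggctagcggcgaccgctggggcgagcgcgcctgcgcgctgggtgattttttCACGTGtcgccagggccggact
The stretch ahead of the inner HSPD1 start (chr2:197500061-197500090, minus strand) has in capitals TTC and GAA units in turn, the pattern of a heat shock element.
HSPD1: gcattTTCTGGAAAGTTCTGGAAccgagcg
The DNAJC15 bases held 19 CG pairs, against a median of 11 over all 35116 windows, and 34.6% of windows held as many. The members' windows held 19 to 34. The full cAMP response element TGACGTCA, searched on both strands in the 250 bases before each start, was in 0 of the members' 10 windows and in 1.65% of all. Its core TGACG, which the full element contains, was in 5 of the 10 (both of HSPD1 and those of HSPE1, TIMM17A and TIMM44) and in 21.2% of all. The steroidogenic factor site CAAGGTCA was in 0 of 10 and in 1.14% of all. A heat shock pattern of 3 units (TTC and GAA in turn, spaced by any 2 bases, starting with either, both strands) was in 1 of 10, an HSPD1 window, and in 0.441% of all. CACGTG was in 6.34% of all windows. These matches describe letters in a window and not the binding of a factor.

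Arrays numbered 1 stood apart in both groups. Their actin probe sets gave 3'/5' ratios, which climb as RNA breaks down, of 5.72 (control 1) and 38.8 (8-Br-cAMP 1), while the remaining 4 arrays gave 1.93 to 2.41. For GAPDH these ratios were 1.79 and 4.29, then 1.05 to 1.17. Results below are therefore given by same-numbered pair and also without both of these arrays, where each group rests on 2 arrays. The correlation of those 2 arrays was 0.961 for controls and 0.980 for treated plates. Adjusted p-values without them may thus reflect technical spread alone. The tissue label held: 8 of 8 measured adrenocortical markers of 9 listed had a mean over the 6 arrays above the filter level (a log2 signal of 5.51). Their summed signal was 6176.4 to 21528.5 in controls and 17594.7 to 37802.5 after 8-Br-cAMP. MC2R was near the filter level, at 91.9, 46.0 and 47.9 in controls and 21.1, 54.7 and 45.0 after 8-Br-cAMP. By the same mean, 1 of 6 markers of chromaffin cells was above the filter level, 2 of 6 of fibroblasts, 2 of 5 of endothelium and 1 of 4 of leukocytes. Summed signals of the chromaffin, fibroblast and leukocyte lists overlapped between groups, at 102.7 to 421.7 in controls and 54.2 to 318.7 after 8-Br-cAMP. The endothelial sum did not overlap, at 183.4 to 231.4 in controls and 304.7 to 419.4 after 8-Br-cAMP. In that list VWF, a clotting factor carrier, read 13.2, 17.8 and 123.8 in controls and 292.3, 224.5 and 289.2 after 8-Br-cAMP (8.67-fold, adjusted p = 0.212 without the block and 0.0493 with the sample number as a block). CDH5, TEK and KDR had a mean below the filter level and were not tested, and PECAM1 differed by -0.02. TEK went against VWF, at 106, 60.7 and 68.1 in controls and 11.3, 20.7 and 14.2 after 8-Br-cAMP (5.09-fold lower, no overlap). CDH5 (2.01-fold lower) and KDR (1.30-fold lower) overlapped between groups. The part of these levels in the results was not tested.

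DNAJC15 had a signal of 728.7, 2714.2 and 2724.8 on controls 1 to 3, and of 81.2, 70.8 and 64.4 after 8-Br-cAMP. The lowest control lay far above the highest treated array, so the groups did not overlap. All treated signals stayed above the filter level of 45.5, but each was below the median signal of its own array (83.3, 71.5 and 67.3). No detection calls were used, so whether the treated signals exceed background was not tested, and the size of the difference depends on it. On the log2 scale the mean was 10.78 ± 1.10 (SD, n = 3) in controls and 6.17 ± 0.17 after 8-Br-cAMP, a difference of -4.61, or 24.4-fold lower. This was the largest drop among the 7927 genes tested at 1 probe set each. In these bulk samples, fewer cells with the transcript and less transcript per cell cannot be told apart. The gene has 1 probe set on the array, so no other probe set reads it here.

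The size of the difference varied between pairs. Pair 1 gave -3.17 on the log2 scale, pair 2 gave -5.26 and pair 3 gave -5.40. The treated arrays were alike, and the variation came from control 1, whose signal was lower than those of controls 2 and 3. Leaving out any 1 array gave -5.24 to -4.29, and without both number 1 arrays it was -5.33. The part of RNA integrity in the level of control 1 was not tested.

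**Figure D1:**
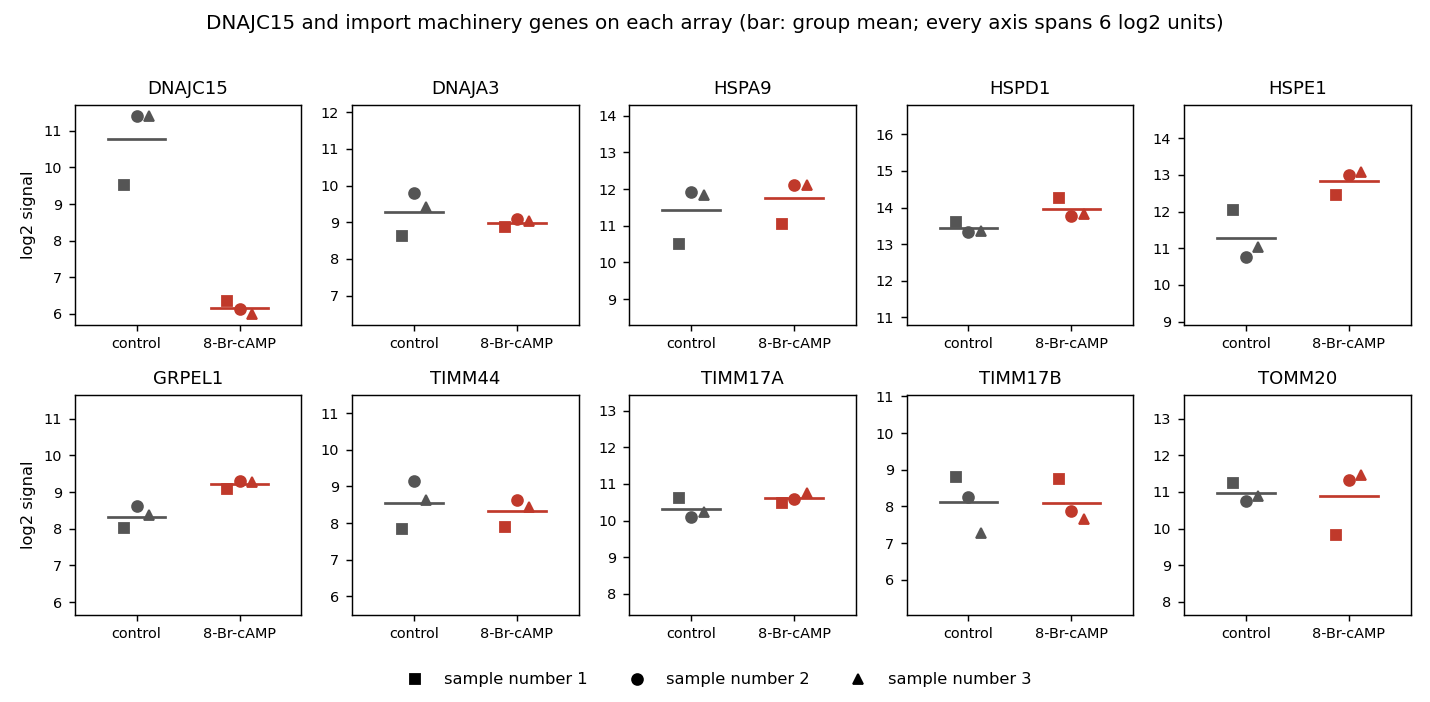
Log2 signal of DNAJC15 and its 9 partners on each array, at the probe set with the highest mean, for control (grey) and 8-Br-cAMP (red) plates. Symbols give the sample number, bars the group means, and every vertical axis spans the same number of log2 units. DNAJC15 drops from a mean of 10.78 to 6.17, while HSPE1 goes from 11.28 to 12.84 and the other genes move less.

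None of the 9 partners, each at its probe set with the highest mean, passed the test at an adjusted p of 0.05. None showed a drop near that of DNAJC15 there. limma without a block called 0 of 9, where it called 0% of all 7927 genes. At an unadjusted p under 0.05 it marked 3 of 9, against 11.9% of all genes, and these 3 were HSPE1, GRPEL1 and HSPD1, all higher after 8-Br-cAMP (4.09% of all genes were marked as higher and 7.86% as lower). The paired fit, which takes the sample number as a block, called 0 of 9 as well (3.68% of all genes), with the same 3 genes at an unadjusted p under 0.05 (22.4% of all genes). The series text's own selection, a 2-fold difference together with p under 0.05 in an unadjusted two-sample test, held 1 of 9, HSPE1, and after Benjamini-Hochberg adjustment that test held 0. Of all 13329 tested probe sets, the selection held 222 as higher and 387 as lower, and the adjusted test held 0 as higher and 1 as lower.

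Among the partners, each at its probe set with the highest mean, the lowest log2 difference was that of DNAJA3 (-0.29), against -4.61 for DNAJC15. The median of the 9 differences was 0.29, and that of all genes was -0.14. By pair, the partners' median was 0.25, 0.43 and 0.46, and that of all genes -0.03, -0.19 and -0.16. Groups did not overlap for 3 of the 9, all with treated arrays higher. Of all genes, 19.9% did not overlap, 6.32% with treated arrays higher and 13.6% with them lower. The treated array was the higher one in every pair for 4 of the 9, which adds HSPA9 (15.2% of all genes), and the lower one in every pair for 0 of 9 (29.5% of all genes). With both number 1 arrays left out, 6 of 9 passed (33.3% of all genes), 5 of them higher (12.8% of all genes) and 1 lower (20.5% of all genes). The members were picked with earlier results known, so these shares are descriptions.

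**Figure D2:**
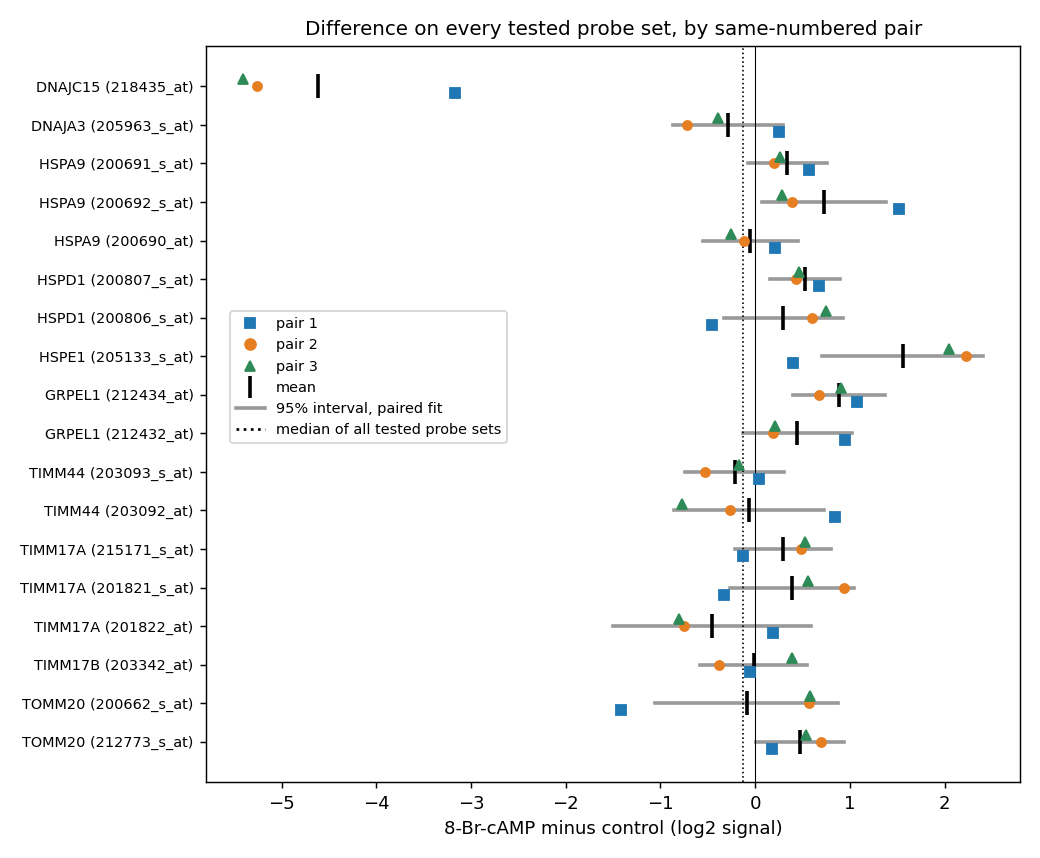
Difference in log2 signal, 8-Br-cAMP minus control, on each of the 18 tested probe sets. Symbols give the pairs 1 to 3, black bars their mean, grey bars the 95% interval of the paired fit (not drawn for DNAJC15, which was chosen on this contrast), and the dotted line the median of all tested probe sets, -0.13. DNAJC15 lies between -5.40 and -3.17, and no other probe set has a mean below -0.46.

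The outer membrane receptor TOMM20, which binds presequences at the TOM complex, gave 2 answers. Its probe set 200662_s_at read 2442.9, 1731.9 and 1881.5 in controls and 912.8, 2577.9 and 2820.0 after 8-Br-cAMP. Array 8-Br-cAMP 1 was the lowest of all and the other 2 treated arrays the highest, so the pairs differed by -1.42, 0.57 and 0.58, with a mean of -0.09 (95% interval -1.05 to 0.88, paired adjusted p = 0.929). On 212773_s_at the pairs differed by 0.18, 0.70 and 0.54, with a mean of 0.47 (0.01 to 0.94, paired adjusted p = 0.230). On arrays 2 and 3 alone the probe sets came together, at 0.58 (adjusted p = 0.00470) and 0.62 (adjusted p = 0.00823).

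TIMM17A and TIMM17B are alternative subunits of the TIM23 channel, encoded by separate genes. TIMM17A read 1563.9, 1099.9 and 1200.9 in controls and 1427.5, 1541.5 and 1727.5 after 8-Br-cAMP on 215171_s_at. The groups overlapped through control 1, and the pairs differed by -0.13, 0.49 and 0.52, with a mean of 0.29 (-0.21 to 0.80, paired adjusted p = 0.471). Its probe set 201821_s_at showed the same split, with -0.33 in pair 1, and 0.94 and 0.56 in pairs 2 and 3. Arrays 2 and 3 alone gave 0.51 (adjusted p = 0.0112) and 0.75 (adjusted p = 0.00608). A dimmer probe set, 201822_at, with signals of 46.4 to 65.9 in controls and 31.3 to 52.7 after 8-Br-cAMP, pointed the other way at -0.46 (paired adjusted p = 0.595). The last TIMM17A probe set, 215168_at, was below the filter on every array and was not tested. It read 8.0, 12.2 and 9.3 in controls and 2.5, 1.0 and 1.0 after 8-Br-cAMP, a difference of -2.83 at very low signal. TIMM17B read 449.8, 305.4 and 155.0 in controls and 433.3, 233.8 and 202.8 after 8-Br-cAMP. Its control arrays spanned all of the treated values, and the mean difference was -0.02 (-0.58 to 0.55, paired adjusted p = 0.979).

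TIMM44 tethers the motor to the channel. On 203093_s_at it read 231.0, 567.9 and 393.5 in controls and 238.2, 394.7 and 349.4 after 8-Br-cAMP. Number 1 arrays were the lowest of each group, and the mean difference was -0.22 (-0.74 to 0.30, paired adjusted p = 0.614). On 203092_at pair 1 differed by 0.85 and pairs 2 and 3 by -0.26 and -0.78, and without both number 1 arrays this probe set was lower by -0.52 (adjusted p = 0.0489), while 203093_s_at differed by -0.35 (adjusted p = 0.192).

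HSPA9, the matrix HSP70 (mortalin) whose ATPase the J-domain proteins stimulate, read 1443.0, 3851.3 and 3692.1 in controls and 2133.8, 4420.7 and 4415.7 after 8-Br-cAMP on 200691_s_at. The treated array was the higher one in each pair, by 0.56, 0.20 and 0.26. Both number 1 arrays were low, and the groups overlapped because 8-Br-cAMP 1 lay below controls 2 and 3. The mean difference was 0.34 (-0.08 to 0.76, paired adjusted p = 0.321). On 200692_s_at it was 0.73 (0.08 to 1.38, paired adjusted p = 0.196), of which pair 1 held 1.51 and pairs 2 and 3 held 0.39 and 0.28. The probe set 200690_at differed by -0.05 (-0.55 to 0.45, paired adjusted p = 0.916). On arrays 2 and 3 alone 200692_s_at passed at 0.34 (adjusted p = 0.0352), while 200691_s_at (0.23, adjusted p = 0.101) and 200690_at (-0.18, adjusted p = 0.291) did not.

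GRPEL1, the exchange factor that frees ADP from HSPA9, was higher on every treated array than on any control array. Its probe set 212434_at read 258.6, 392.8 and 329.6 in controls and 545.0, 627.9 and 617.8 after 8-Br-cAMP. The mean went from 8.33 ± 0.30 (SD, n = 3) to 9.22 ± 0.11 on the log2 scale, or 1.85-fold. The pairs differed by 1.08, 0.68 and 0.91, with a mean of 0.89 (0.40 to 1.37), which did not pass without the block (adjusted p = 0.273) or with it (0.0713), over a range of 0.00368 to 0.757 in all alternatives. On 212432_at the groups did not overlap either (239.8, 316.9 and 279.0 in controls, then 462.9, 360.0 and 322.3), with a difference of 0.45 (-0.13 to 1.03, paired adjusted p = 0.343). When both number 1 arrays were left out, 212434_at passed at 0.79 (adjusted p = 0.00368) and 212432_at did not, at 0.20 (adjusted p = 0.342).

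HSPE1, the HSP10 lid of the chaperonin, showed the largest difference of the partners, opposite to that of DNAJC15. It read 4225.6, 1739.8 and 2084.8 in controls and 5579.5, 8119.8 and 8611.2 after 8-Br-cAMP on its 1 probe set. Every treated array was above every control array, with control 1 the closest. The mean went from 11.28 ± 0.68 (SD, n = 3) to 12.84 ± 0.34, a difference of 1.56 (0.70 to 2.41), or 2.94-fold. Pair 1 differed by 0.40, and pairs 2 and 3 by 2.22 and 2.05. The test did not pass without the block (adjusted p = 0.180) or with it (0.0713). Arrays 2 and 3 alone differed by 2.13 (adjusted p = 1.58e-05), and over all alternatives the adjusted p ran from 1.58e-05 to 0.675.

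HSPD1, the HSP60 barrel of the same chaperonin, whose gene shares the bases shown above with HSPE1, was higher on 200807_s_at, at 12377.4, 10375.7 and 10437.1 in controls and 19766.1, 14001.6 and 14406.4 after 8-Br-cAMP. The groups did not overlap, and the pairs differed by 0.68, 0.43 and 0.47, with a mean of 0.52 (0.16 to 0.89). It did not pass without the block (adjusted p = 0.419) or with it (0.123), over 0.00854 to 0.885 in all alternatives. On 200806_s_at both number 1 arrays were the lowest (2526.8 in controls and 1846.6 after 8-Br-cAMP). There the pairs differed by -0.45, 0.60 and 0.75, with a mean of 0.30 (-0.33 to 0.92, paired adjusted p = 0.558). Leaving out both number 1 arrays, the 2 probe sets were higher by 0.45 (adjusted p = 0.00854) and 0.67 (adjusted p = 0.00159). HSPD1 and HSPE1 have processed copies elsewhere in the genome, and whether these add to the signals was not tested.

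DNAJA3 (TID1), a matrix J-domain protein that also works with HSPA9, read 391.2, 892.7 and 684.3 in controls and 464.2, 542.4 and 523.3 after 8-Br-cAMP. Treated arrays lay within the span of the controls. The pairs differed by 0.25, -0.72 and -0.39, with a mean of -0.29 (-0.87 to 0.30, paired adjusted p = 0.548). Without both number 1 arrays it was lower by -0.55 (-0.89 to -0.21, adjusted p = 0.0244), the 1 of 9 partners to pass in that direction. DNAJC15, which shares the J domain with it, differed by -5.33 on the same arrays.

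Other import and chaperone genes, along with a list of general mitochondrial genes outside import, were used as a wider view. They numbered 100 in 8 lists, of which 75 had a probe set with 1 symbol and 74 passed the filter. None passed without the block, 7 had an unadjusted p under 0.05 (4 higher, 3 lower, where 11.9% of all genes had one, 4.09% higher and 7.86% lower), and 1, as higher, passed the paired fit (1.73% of all genes passed as higher). That gene was DNAJC3, an endoplasmic reticulum co-chaperone with a J domain, and not a mitochondrial one. It read 267.1, 218.9 and 185.9 in controls and 975.8, 748.0 and 569.6 after 8-Br-cAMP, with no overlap. It rose by 1.75 (SE 0.20, paired adjusted p = 0.0142), or 3.37-fold, with pair differences of 1.87, 1.77 and 1.62. Without the block its adjusted p was 0.0993, and over all alternatives it ran from 0.000298 to 0.502.

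The 74 genes had a median difference of -0.03, near 0 and above the -0.14 of all genes. Without both number 1 arrays 29 of 74 passed, 13 higher and 16 lower, where 33.3% of all genes passed, 12.8% higher and 20.5% lower. In the outer membrane TOM and SAM list the median over 7 genes was -0.32. TOMM34, a cytosolic co-chaperone that aids delivery to TOM, had the smallest unadjusted p there, at 0.75 (paired adjusted p = 0.0933) with no overlap between groups. In that list 4 of the 7 were below 0, against 4861 of all 7927 genes. The other TIM23 and motor subunits were thinly covered, with 2 of 7 listed genes tested. TIMM50, the receptor of that channel, differed by 0.80, 0.13 and -0.32 in pairs 1 to 3 (mean 0.20, paired adjusted p = 0.773). DNAJC19, the closest relative of DNAJC15 in the motor, has no probe set with 1 symbol in the annotation used and is not analysed here.

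In the carrier import list (TIM22, the small TIM chaperones and the oxidative folding pair) the median over 9 genes was -0.24. TIMM22, the channel for carrier proteins, stood highest at 0.80 (0.32 to 1.28, paired adjusted p = 0.0860), with no overlap between groups. Without both number 1 arrays it passed at 0.89, and 3 of the 9 genes passed as lower (20.5% of all genes). All 4 processing peptidase genes had a mean difference below 0, as did 4861 of all 7927 genes. MIPEP, which trims a second stretch from some presequences, read 127.1, 104.2 and 113.1 in controls and 87.0, 48.7 and 55.8 after 8-Br-cAMP, with no overlap and a difference of -0.89 (-1.61 to -0.17, paired adjusted p = 0.164).

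Matrix quality control genes (9 tested) had a median of -0.02. YME1L1, an inner membrane protease that among other targets degrades TIMM17A, differed by 0.38 (-0.03 to 0.78, paired adjusted p = 0.263). Cytosolic chaperones that hand precursors to TOM (8 tested) had a median of 0.08. Among them HSP90AB1 read 2715.9, 2760.3 and 2682.6 in controls and 3694.5, 4008.6 and 3611.6 after 8-Br-cAMP, and differed by 0.47 (0.08 to 0.87, paired adjusted p = 0.174). Control arrays of this gene were close together, number 1 included. The 23 other J-domain genes had a median of 0.07, with 2 that did not overlap as higher and 4 as lower (6.32% and 13.6% of all genes). Without both number 1 arrays 7 of them passed as higher and 3 as lower (12.8% and 20.5% of all genes). General mitochondrial genes outside import (12 tested) had a median of 0.02. In that list UQCRC2, a core subunit of respiratory complex III, differed by -0.51 (-0.96 to -0.06, paired adjusted p = 0.191), and without both number 1 arrays 1 of 12 passed as higher and 5 as lower (12.8% and 20.5% of all genes).

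**Figure D3:**
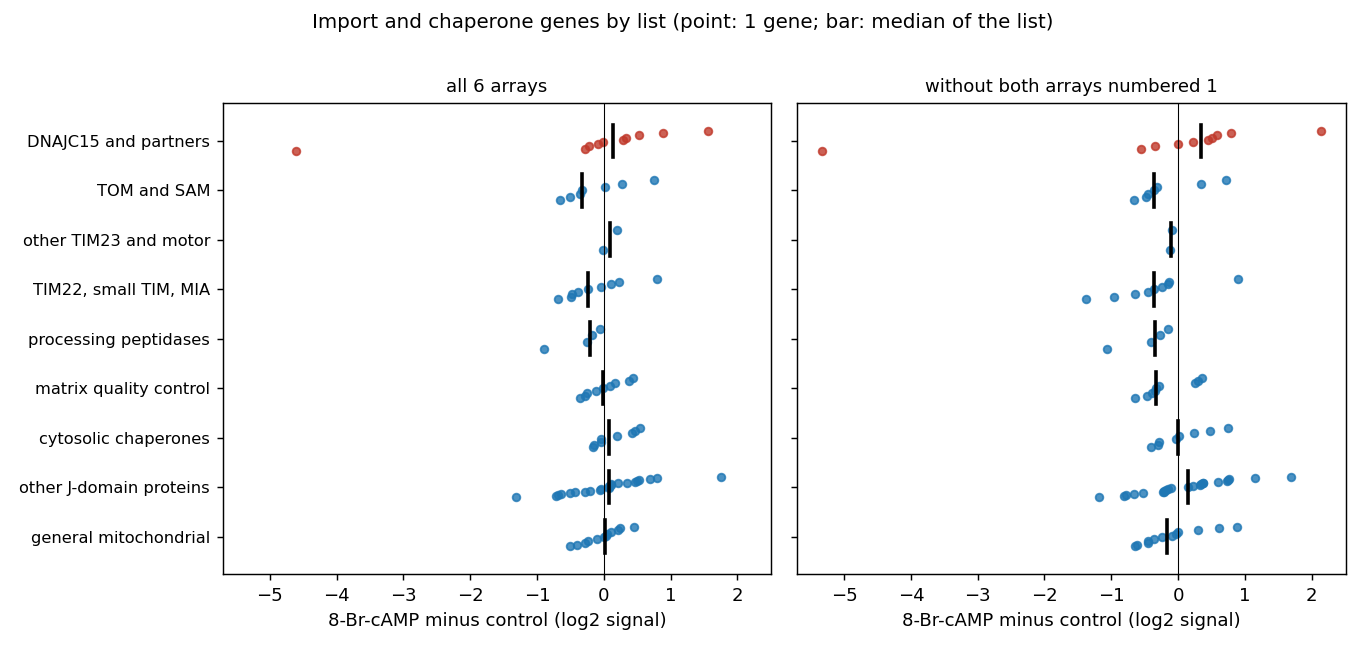
Difference in log2 signal, 8-Br-cAMP minus control, of DNAJC15 with its partners (red) and of 74 other import, chaperone and general mitochondrial genes (blue), 1 point per gene. All 6 arrays are on the left, and the right side leaves out both arrays numbered 1. Black bars are list medians. DNAJC15 is the isolated point at -4.61 and -5.33, and the rest of the genes lie between -1.38 and 2.13.

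The pattern of DNAJC15 over the 6 arrays, high on controls 2 and 3, lower on control 1 and lowest after treatment, was set beside that of all tested genes by Pearson's r of log2 signal. The members ran from -0.962 (HSPE1) to 0.581 (DNAJA3), with HSPD1 at -0.846, TIMM17A at -0.812 and GRPEL1 at -0.805. The 5 most alike genes were AMZ2, a metalloprotease (0.998), VAMP4, a vesicle fusion protein (0.998), TPD52L1 of the tumour protein D52 family (0.995), CAPRIN2, an RNA-binding protein (0.994), and MCCC1, a mitochondrial carboxylase subunit of leucine breakdown (0.990). Their own differences were smaller than that of DNAJC15, at -0.88, -0.58, -1.49, -0.94 and -0.78 in that order, and their groups did not overlap. As a mean over probe sets VAMP4 differed by -0.29 and TPD52L1 by -1.96, while AMZ2, CAPRIN2 and MCCC1 kept their values. The 6 arrays share the group difference that chose DNAJC15. Every r also takes in the level of control 1, the control with the highest actin 3'/5' ratio (5.72), and the part of RNA integrity was not tested. The r of the members is thus a description as well. The 5 most alike genes were in addition picked for their likeness. Their r, their differences and their lack of overlap (13.6% of all genes did not overlap, with treated arrays lower) are therefore descriptions and not tests.

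**Figure D4:**
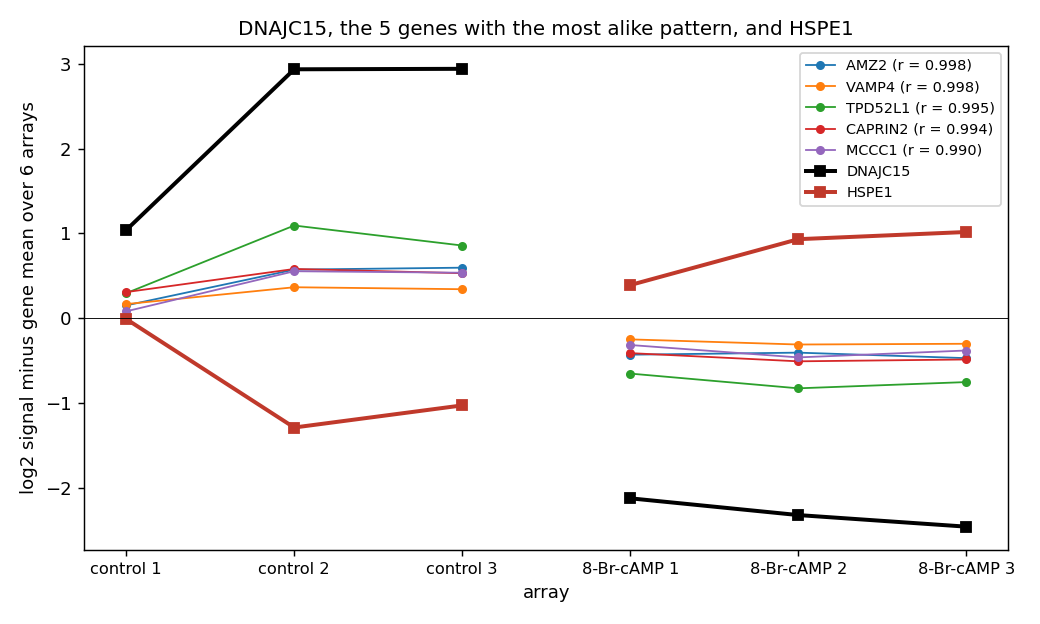
Log2 signal minus each gene's mean over the 6 arrays, for DNAJC15 (black), the 5 genes with the highest Pearson's r to it (thin lines) and HSPE1 (red). Lines join arrays of 1 group only for reading. The 5 genes are above 0 on all controls and below 0 on all treated arrays, with smaller steps than the -4.61 of DNAJC15, and HSPE1 goes the other way with r = -0.962.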

How the data were processed

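Signal intensities, 1 per probe set and array on a linear scale, were deposited by the authors and made with GCOS 1.3, per the labels' protocols. No detection calls were used. The 2% trimmed means of the 6 deposited columns lay between 249.996 and 250.155, so the values were taken as already scaled. The table held 22277 probe sets, 62 of them array controls. Platform annotation gave 1 symbol for 19064. Intensities were taken to log2, and 13329 probe sets with a mean above the 40th percentile were tested with limma 3.58.1 in R 4.3.3 (lmFit, eBayes with an intensity trend, two-sided, Benjamini-Hochberg adjustment over all 13329, threshold 0.05). Each gene is represented by its probe set with the highest mean.

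The main design had no block. Arrays that share a number deviate together from their groups (correlation 0.603, 0.378 and 0.538 for numbers 1, 2 and 3, each over 0.1), and the numbers were therefore used as pairs, which rests on the data and not the labels. That fit is called the paired fit, and intervals are its 95% intervals. Deviations within a group sum to 0, so the shared deviation of the number 1 arrays also raises the correlations for numbers 2 and 3. Control 2 correlated at 0.885 with 8-Br-cAMP 2 and at 0.884 with 8-Br-cAMP 3, and control 3 at 0.904 with each. The values thus set number 1 apart but do not tell pair 2 from pair 3. Members and lists were chosen with earlier results of these data known. Named outside the members are, per list, the genes that pass (at most 2 a direction) or else the 1 with the smallest unadjusted p in the paired fit, and the 5 genes most alike to DNAJC15. The fits were tested on simulated data. Alternatives covered normalization, filter, floor, pseudocount, variance model, block, test, probe set choice and arrays left out.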

Additional observations from a re-analysis of the deposited data

How the results depend on the processing

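The DNAJC15 difference stayed within 1 pooled SD (0.785) of -4.61 in all 12 alternatives run for it, from -5.33 without both number 1 arrays to -4.33 with a pseudocount of 16, and from -5.24 to -4.29 with 1 array left out. The count of 0 partners passing became 1 with a replicate block and a common median (HSPD1), 1 under the 2-fold selection (HSPE1) and 6 without both number 1 arrays. It was 0 to 0 with 1 array left out. Leaving out control 2, control 3, 8-Br-cAMP 2 or 8-Br-cAMP 3 called 0 of all 13329 probe sets, so in these fits no partner or listed gene could pass. Of all probe sets, 41 passed as higher and 17 as lower without control 1, and 139 and 146 without 8-Br-cAMP 1. The count of 0 of the 74 other genes became 1 with the replicate block (also with quantile normalization, a common median, no filter or no trend), 1 under the 2-fold selection and 29 without both number 1 arrays, and ran from 0 to 1 with 1 array left out, the 1 being DNAJC3 without 8-Br-cAMP replicate 1. The block changed no other call among the partners and lists. Of the genes alike to DNAJC15 it called TPD52L1 (3.68% of all genes passed with the block). These genes were picked for their likeness on the same arrays, so that call is no test. Over all tested probe sets the median log2 difference moved from -0.13 to -0.03 under quantile normalization and to 0.09 under a common median, and paired calls went from 207 higher and 221 lower to 184 and 153, and 103 and 39. With a common median 8 of 9 partners were above 0, against 5 of 9 as reported. That setting moves the difference of every probe set up by the same amount, so the higher count is no result about the partners.

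Signs turned for 5 of the named genes, whose differences as reported lay between -0.22 and 0.34. TIMM44 became 0.0082 with a common median, TIMM17B 0.12 with quantile normalization, 0.21 with a common median and 0.0012 without both number 1 arrays, TOMM20 0.14 with a common median, 0.19 as a mean over probe sets and 0.58 without both number 1 arrays, and TIMM50 -0.094 without both. With 1 array left out the ranges that crossed 0 were -0.12 to 0.69 for HSPA9, -0.56 to 0.087 for TIMM44, -0.44 to 0.33 for TIMM17B, -0.38 to 0.43 for TOMM20 and -0.071 to 0.38 for TIMM50. The cause was not tested.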
